A study of Homo sapiens with 8 samples.

Results

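The Notch pathway was followed in LX-2 cells, a human hepatic stellate cell (HSC) line, after inhibition of O-GlcNAc transferase (OGT). The set comprised 10 of the 16796 genes in each library, picked by name: the receptors NOTCH1, NOTCH2 and NOTCH3, the ligands JAG1, JAG2 and DLL1, the DNA-binding protein RBPJ, and the effectors HES1, HEY1 and HEYL. OGT attaches the sugar O-GlcNAc to proteins of the nucleus and cytoplasm, and the compound OSMI-1 blocks this enzyme. There were 4 Control libraries from cells given the vehicle DMSO and 4 OGTi libraries from cells given OSMI-1 at 50 µM, each after 24 h in DMEM with 5% fetal bovine serum. The labels give the 4 libraries of a group as biological replicates, and in the study's methods a treated and a control culture of the same replicate form a pair. LX-2 is a single immortalised line, so the spread between libraries is that between cultures and not between donors. The comparison of OGTi with Control asks how inhibition of the enzyme alters messenger RNA (mRNA) levels in these cells.

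Notch receptors sit in the cell membrane and are activated by Jagged or Delta-like ligands on a neighbouring cell. Binding lets an ADAM sheddase and then gamma-secretase cut the receptor, and the freed intracellular domain joins RBPJ and a Mastermind-like coactivator on DNA, where genes for HES and HEY repressors are among the best known targets. Without that domain RBPJ recruits corepressors. In the liver the pathway is known for bile duct formation, in which JAG1 and NOTCH2 are the genes mutated in Alagille syndrome, and for the activation of HSCs.

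The libraries held between 24166756 and 28201215 counts. Of 13 HSC and myofibroblast markers, 10 reached a Control mean of 10 TPM (a count per transcript length, scaled to a common library total), while DES and LRAT stayed under 1 TPM in all 8 libraries. The summed level of that list was 8513 to 9396 TPM in Control and 7663 to 9975 TPM in OGTi. By the test described below, 8 of its 11 genes with an adjusted p-value were called lower and 1 higher. Among all genes with such a value, 24.0% were called lower and 22.7% higher. The count data held 6 of 7 endothelial markers and 4 of 6 macrophage and leukocyte markers. The summed endothelial level was 35.1 to 47.6 TPM in Control and 47.6 to 87.9 TPM in OGTi. The macrophage and leukocyte sum was 175 to 280 TPM in Control and 391 to 677 TPM in OGTi. In each of these lists 1 gene, TIE1 and CD68 respectively, exceeded a Control mean of 10 TPM and was called higher, while the endothelial CDH5 and TEK were called lower. Of 8 hepatocyte markers, 3 were in the count data. Their summed level was 0.422 to 0.993 TPM in Control and 2.54 to 4.39 TPM in OGTi. CYP2E1 was called higher, with means of 0.645 and 3.22 TPM, while APOA1 and TAT stayed under 1 TPM in all libraries. Of 5 cholangiocyte markers, 3 were in the count data. Their sum was 25.7 to 41.3 TPM in Control and 32.7 to 46.1 TPM in OGTi, with SOX9 called higher and KRT7 lower. The part of these shifts in the Notch results was not tested.

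By level per transcript length, NOTCH2 was the leading Notch gene of Control LX-2 cells, and the ligands and classical effectors were far lower. In Control, NOTCH2 stood at 156 ± 19.7 TPM (SD, n = 4) and RBPJ at 75.5 ± 8.15 TPM. NOTCH1 followed at 39.0 ± 2.40 TPM and JAG1 at 11.9 ± 0.618 TPM. These 4 genes did not overlap with each other in any Control library. HEYL at 5.42 ± 0.307 TPM and HES1 at 4.66 ± 1.67 TPM came next, and their ranges overlapped. NOTCH3 had a level of 1.83 ± 0.715 TPM, below every HES1 value. JAG2 at 0.653 ± 0.115, DLL1 at 0.471 ± 0.315 and HEY1 at 0.0400 ± 0.0376 TPM closed the order, in which JAG2 overlapped with DLL1 and DLL1 with HEY1. In OGTi, NOTCH1 at 64.2 ± 5.69 TPM stood beside RBPJ at 61.6 ± 9.98 TPM, with overlapping ranges. TPM here divides by the longest annotated transcript. With the mean length of the coding transcripts the Control order differed only in DLL1 standing above JAG2, while NOTCH2, RBPJ and NOTCH1 read 280, 143 and 24.1 TPM.

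**Figure D1:**
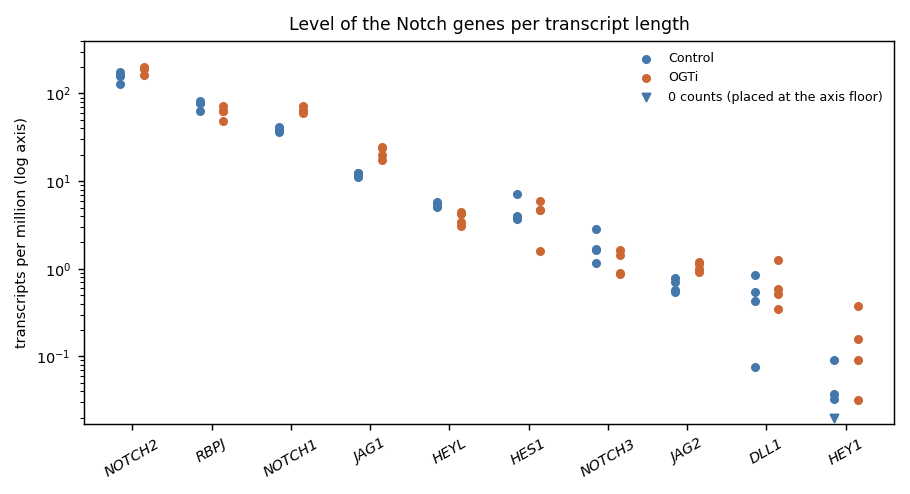
Level of the 10 Notch genes in TPM (log axis), with a point for each of the 4 Control and 4 OGTi libraries and genes ordered by their Control mean. NOTCH2 leads at 156 TPM in Control and HEY1 is last at 0.0400 TPM; the triangle marks the Control library with 0 HEY1 counts.

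Between groups, 3 Notch genes were higher in OGTi (NOTCH1, NOTCH2 and JAG1) and 3 were lower (NOTCH3, RBPJ and HEYL). JAG2, DLL1 and HES1 did not pass the test, and HEY1 had too few counts to receive an adjusted p-value. The test was the DESeq2 Wald test with replicate number as a block, and the threshold for a call was 0.05 on q, the p-value after Benjamini-Hochberg adjustment over all genes tested. All 10 genes passed the filter on low counts. By the same rule 46.6% of all genes with a q were called, 22.7% higher and 24.0% lower, and the calls on 6 of the 9 Notch genes with a q are to be read against these shares. The median log2 fold change was 0.41 over the 10 genes and 0.00 over all genes tested. Of the genes without a call, JAG2, DLL1 and HEY1 had positive estimates and HES1 a negative one. Normalized counts did not overlap between the groups for 4 of the 10 (NOTCH1, JAG1, JAG2 and HEYL), against 38.0% of all genes tested. In these bulk libraries, fewer cells that express a gene and less of its RNA per cell cannot be told apart.

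**Figure D2:**
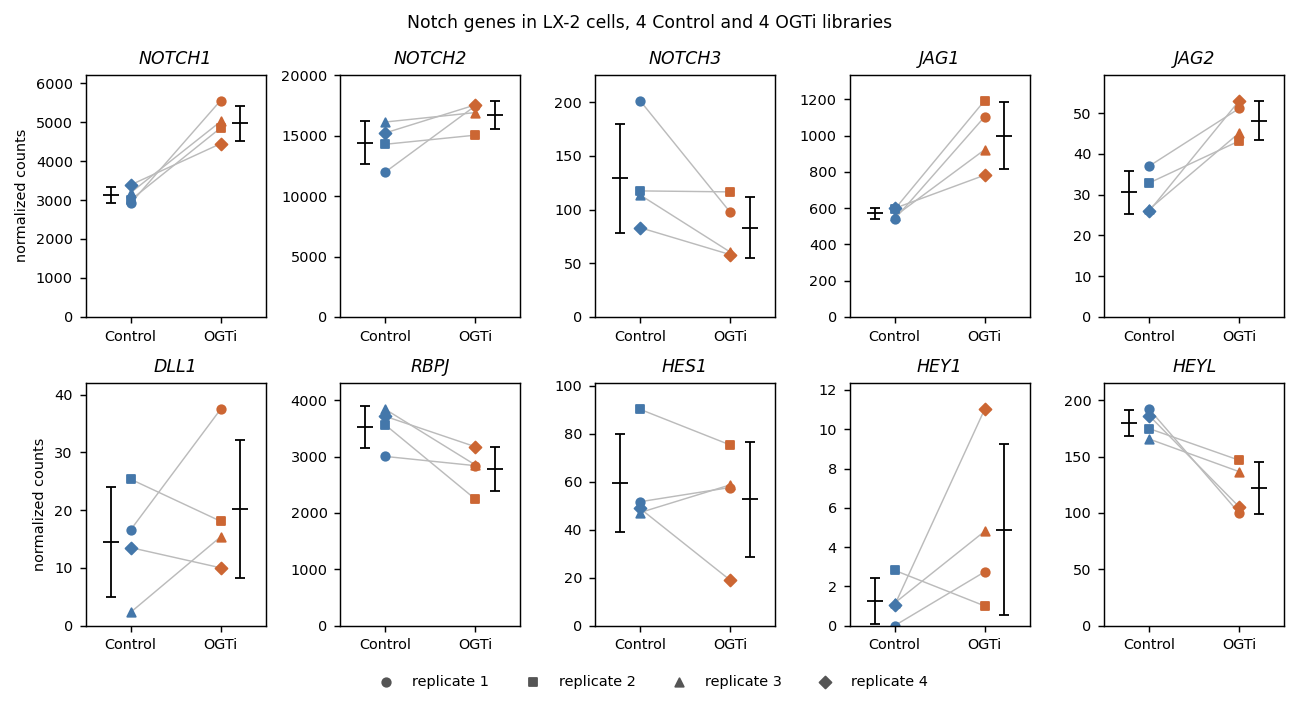
Normalized counts (linear axes from 0) of each Notch gene in the 4 Control and 4 OGTi libraries, with grey lines joining libraries of the same replicate number and bars for the mean ± SD. NOTCH1 and JAG1 are higher in every OGTi library than in any Control library, and HEYL is lower in every OGTi library.

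The receptor genes did not all move the same way, but the opposite direction rested on NOTCH3, whose call was lost in several fits. NOTCH1 (chr9:136494433-136546048, minus strand, hg38) encodes the most widely studied receptor of the family. Its normalized counts were 2914, 2999, 3186 and 3386.5 in Control replicates 1 to 4 and 5554, 4851, 5016 and 4447 in OGTi replicates 1 to 4. Every OGTi library lay above every Control library, and all 4 pairs rose. The mean was 3121 ± 210 in Control and 4967 ± 459 in OGTi (SD, n = 4 each). On the log2 scale the fitted change was 0.67 ± 0.09 (SE), with a DESeq2 q of 3.65e-13. NOTCH1 was called in each of the 10 alternative fits, with log2 fold changes of 0.58 to 0.76.

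NOTCH2 (chr1:119911553-120100779, minus strand), the abundant receptor gene, changed less. It had 11991.5, 14297, 16139 and 15235 normalized counts in Control and 17480, 15051, 16922 and 17557 in OGTi. The groups overlapped, since OGTi replicate 2 lay below Control replicates 3 and 4, but each pair was higher in OGTi. The log2 fold change was 0.22 ± 0.08 (DESeq2 q = 0.0189). The rise leaned on replicate 1, whose pair differed by 0.54 on the log2 scale while the others differed by 0.07 to 0.20. The call was lost without replicate 1 (0.12, DESeq2 q = 0.178), without replicate 4 (0.23, q = 0.0764) and without the replicate block (0.22, q = 0.0641). In 7 of the 8 libraries NOTCH2 had a fractional count, which means that reads were shared with other genes. Its near-copies NOTCH2NLA, NOTCH2NLB, NOTCH2NLC and NOTCH2NLR, which arose by partial duplication of NOTCH2, had Control means of 206, 514, 301 and 177 normalized counts. They did not pass the DESeq2 test, with log2 fold changes of 0.15 to 0.37 and q of 0.059 to 0.441. NOTCH2NLC was called by DESeq2 with a stricter filter (0.32, q = 0.0467), and edgeR with the block called NOTCH2NLC (0.32) and NOTCH2NLR (0.37). Adding their counts to NOTCH2 gave the same log2 fold change of 0.22 (DESeq2 q = 0.0187).

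NOTCH3 (chr19:15159038-15200995, minus strand), a receptor known from vascular smooth muscle and pericytes, was low and moved the other way. Its normalized counts were 202, 117, 114 and 83.2 in Control and 97.8, 117, 60.6 and 58.1 in OGTi. The groups overlapped, and Control replicate 1 was the highest library of all. All 4 pairs were lower in OGTi, but replicate 2 by only 0.01 on the log2 scale. The log2 fold change was -0.62 ± 0.25 (DESeq2 q = 0.0303). The call was lost without replicate 1 (-0.47, DESeq2 q = 0.252), replicate 3 (-0.53, q = 0.153) or replicate 4 (-0.65, q = 0.0827) and without the replicate block (-0.63, q = 0.0742).

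NOTCH1 took a larger share of the receptor transcripts in OGTi libraries. It made up 18.4% to 21.5% of the summed TPM of the 4 receptor genes in Control and 22.6% to 26.9% in OGTi, and the groups did not overlap. NOTCH2 made up 78.9% ± 1.76 in Control and 73.9% ± 2.16 in OGTi (SD, n = 4 each). With the mean length of the coding transcripts the NOTCH1 share was smaller, 7.90% ± 0.624 and 10.5% ± 0.992. The log2 ratio of NOTCH1 to NOTCH2 counts was 0.45 higher in OGTi (two-sided exact permutation p = 0.0286, the smallest that 4 against 4 libraries allow, and 0.114 after adjustment over the 4 ratios tested, which is above 0.05). It was higher in OGTi in all 4 pairs. The log2 ratio of NOTCH3 to NOTCH2 was 0.84 lower in mean and lower in all 4 pairs, with overlapping libraries (exact permutation p = 0.143, adjusted 0.267). With the pairs kept, an exact sign-flip test gave p = 0.125 for both ratios, the smallest that 4 pairs allow.

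Among the ligands, JAG1 (chr20:10637684-10673999, minus strand) was the main one and rose. It had 540, 594, 555 and 599 normalized counts in Control and 1105, 1194, 923 and 782 in OGTi. The Control libraries were tightly grouped, every OGTi library lay above them, and OGTi replicate 4 was the nearest to Control. The mean went from 572 ± 29.1 to 1001 ± 184, with a fitted log2 fold change of 0.79 ± 0.12 (DESeq2 q = 8.53e-10). JAG1 was called in each of the 10 alternative fits, with log2 fold changes of 0.71 to 0.93.

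JAG2 (chr14:105140982-105168824, minus strand), the other Jagged ligand, had 37.0, 32.9, 26.4 and 26.0 normalized counts in Control and 51.2, 43.2, 45.2 and 53.1 in OGTi. All OGTi libraries lay above all Control libraries. At 23 to 56 raw counts per library the log2 fold change of 0.66 had an SE of 0.36 and a 95% interval from -0.05 to 1.37, and it did not pass the test (DESeq2 q = 0.128). The q was also above 0.05 in each of the 10 alternative fits, the lowest being 0.0552. The log2 ratio of JAG2 to JAG1 differed by -0.13 between groups (exact permutation p = 0.629), and its sign turned without replicate 1 or 2.

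DLL1 (chr6:170282206-170306565, minus strand), a Delta-like ligand, was low, at 2 to 41 raw counts per library. Its normalized counts were 16.6, 25.4, 2.298 and 13.5 in Control and 37.5, 18.1, 15.4 and 10.02 in OGTi, with overlapping groups. It was higher in OGTi in 2 pairs and lower in the other 2. The log2 fold change was 0.60 ± 0.62 with a 95% interval from -0.62 to 1.81, and it did not pass the test (DESeq2 q = 0.455). FAM120B lies on the opposite strand over part of DLL1, and the counting was strand-specific.

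Of the receptor and ligand genes outside the 10, DLL4, a Delta-like ligand known from endothelial cells, was the only called gene of the 3. DLL4 had 18.5, 31.9, 5.75 and 14.6 normalized counts in Control and 107, 116, 43.3 and 27.0 in OGTi. All 4 pairs rose although OGTi replicate 4 fell within the Control range. The log2 fold change was 2.02 ± 0.41 (DESeq2 q = 3.73e-06). NOTCH4 (0.44 ± 0.46, DESeq2 q = 0.455) and DLL3 (0.18 ± 0.50, q = 0.807) did not pass the test, and they were named after their values were seen. JAG1 made up 80.7% ± 4.65 of the summed TPM of the 5 canonical ligands in Control and 79.2% ± 3.87 in OGTi, and DLL4 made up 4.20% ± 2.36 and 9.28% ± 4.05. The summed ligand TPM was 14.7 ± 1.23 in Control and 27.2 ± 5.70 in OGTi, and the receptor sum was 197 ± 21.0 and 253 ± 19.1 (SD, n = 4 each).

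**Figure D3:**
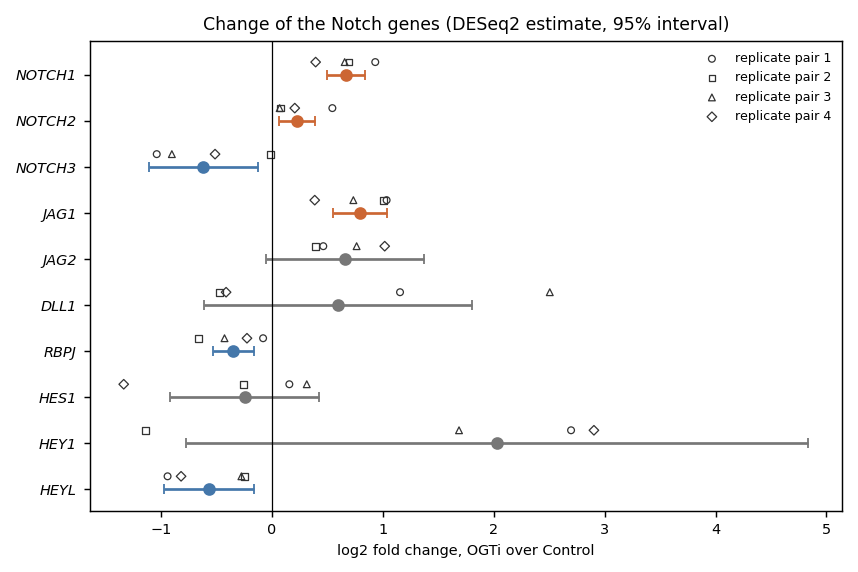
Log2 fold change of OGTi over Control for the 10 Notch genes, with the DESeq2 estimate and its 95% interval (orange, called higher; blue, called lower; grey, not called or no q) and open symbols for the 4 replicate pairs. The intervals of NOTCH1 (0.50 to 0.84) and JAG1 (0.55 to 1.03) lie above 0, while that of HEY1 spans -0.78 to 4.84.

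RBPJ (chr4:26163455-26435131, plus strand), the DNA-binding protein through which all Notch receptors act, was lower in OGTi. It had 3003, 3563, 3839 and 3714 normalized counts in Control and 2838, 2245, 2851 and 3174 in OGTi. OGTi replicate 4 lay above Control replicate 1, so the groups overlapped, and all 4 pairs were lower. The log2 fold change was -0.35 ± 0.09 (DESeq2 q = 0.000746). RBPJ was called in each of the 10 alternative fits, with the weakest value without replicate 2 (-0.24, DESeq2 q = 0.0472).

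Among the effectors, HEYL, which had the highest mean level of the 3 in Control, was lower in OGTi, and HES1 did not pass the test. The RBPJ core TGGGAA was searched on both strands in the 250 bases upstream of the start of 8 Notch genes. HEY1 and DLL1 had no RefSeq promoter entry and were not searched. Of the 8, HES1 and HEYL held the core, which was present in 21.1% of 27305 promoters of this length. The sequences are shown because they carry the letters that RBPJ is known to bind, at the genes taken as readouts of the pathway. They come from RefSeq (GRCh38.p14), read 5′ to 3′ along the gene and end at the base before the start, and capitals mark the core or its reverse complement TTCCCA.
HES1: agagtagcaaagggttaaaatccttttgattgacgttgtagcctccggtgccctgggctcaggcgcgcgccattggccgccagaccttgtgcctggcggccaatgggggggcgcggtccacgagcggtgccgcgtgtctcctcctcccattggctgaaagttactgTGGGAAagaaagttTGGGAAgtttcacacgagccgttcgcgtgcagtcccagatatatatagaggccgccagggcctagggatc
HEYL: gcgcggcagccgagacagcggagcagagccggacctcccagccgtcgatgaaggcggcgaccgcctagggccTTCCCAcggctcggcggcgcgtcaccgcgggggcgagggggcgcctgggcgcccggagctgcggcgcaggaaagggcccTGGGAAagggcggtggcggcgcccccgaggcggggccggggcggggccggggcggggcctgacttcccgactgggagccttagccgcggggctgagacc

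The HES1 stretch is chr3:194135898-194136147 on the plus strand, with both cores on the strand of the gene, from -84 to -79 and from -70 to -65 relative to the start. The HEYL stretch is chr1:39639644-39639893 on the minus strand, with a core from -99 to -94 and a reverse core from -178 to -173. The core was present in 21.1% of 27305 promoters of this length, against HES1 and HEYL among these 8. Only the first listed start of each gene was searched, so other starts were not covered. The core GGAATG of TEAD factors, present in 11.9% of the promoters, was in none of the 8 stretches. A match of letters is not a measured binding site.

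HES1 (chr3:194136148-194138732, plus strand), a repressor that is a standard readout of Notch activity, had 51.6, 90.2, 47.1 and 48.9 normalized counts in Control and 57.6, 75.3, 58.6 and 19.0 in OGTi. Control replicate 2 was the highest and OGTi replicate 4 the lowest library, and the groups overlapped. It was higher in OGTi in 2 pairs and lower in the other 2. The log2 fold change was -0.25 ± 0.34 with a 95% interval from -0.92 to 0.42 (DESeq2 q = 0.585), and its sign turned without replicate 4 (0.063, q = 0.919).

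HEYL (chr1:39623435-39639643, minus strand), an effector of the HEY family known as a NOTCH3 target in smooth muscle, had 192, 175, 165.5 and 186 normalized counts in Control and 99.6, 147, 136.5 and 105 in OGTi. All Control libraries lay above all OGTi libraries, and the pairs of replicates 1 and 4 differed most. The mean was 180 ± 11.8 in Control and 122 ± 23.1 in OGTi, and the fitted log2 fold change was -0.57 ± 0.21 (DESeq2 q = 0.0150). The call was lost without replicate 1 (-0.45, DESeq2 q = 0.144) or replicate 4 (-0.49, q = 0.135).

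HEY1, the third effector, was barely detected, with 25 counts over the 8 libraries. Its raw counts were 0, 3, 1 and 1 in Control and 3, 1, 5 and 11 in OGTi, and 11 of the 25 counts came from OGTi replicate 4. The fitted log2 fold change of 2.03 ± 1.43 had a 95% interval from -0.78 to 4.84, and the Wald p-value from DESeq2 was 0.157, with no q. The log2 ratio of HES1 to HEY1 differed by -1.81 between groups (exact permutation p = 0.2, adjusted 0.267).

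By level, the effectors of the set were not the leading HES and HEY genes of these cells. HES4 and HES6 made up 41.5% ± 3.90 and 36.3% ± 3.56 of the summed TPM of 9 HES and HEY genes in Control, against 8.42% ± 2.54 for HES1 and 9.94% ± 1.19 for HEYL. In OGTi, HEYL made up 5.62% ± 1.13 and HES6 46.8% ± 4.42. The list of other family genes also held BHLHE40 and BHLHE41, which are relatives and not HES or HEY genes. Over all genes with a q, 22.7% were called higher and 24.0% lower. Of the 6 genes tested in the list, 3 were called, all of them higher. These were HES6 (log2 fold change 0.63 ± 0.16, DESeq2 q = 0.000232), BHLHE40, a repressor of the same protein class known from the circadian clock and hypoxia (0.58 ± 0.12, q = 1.88e-05), and HES7, known from the segmentation clock (0.94 ± 0.40, q = 0.0423). HES7 had mean normalized counts of 25.5 in Control and lost its call without replicate 1 (0.82), 2 (0.68) or 3 (1.04). HES4, named after its values were seen, differed by 0.04 ± 0.19 (DESeq2 q = 0.880).

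The remaining pathway was described from lists of 93 genes, of which 83 were tested and 82 had a q. Of these, 16 were called higher and 26 lower, and 40 were not called. Their median log2 fold change was -0.00. These counts stand beside the 22.7% called higher and 24.0% called lower among all genes. They include KYAT1, a metabolic enzyme listed among the corepressors, which was not called.

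All 8 genes described for receptor cleavage were called, 4 higher and 4 lower, against 46.6% of all genes with a q. For 7 of them the groups did not overlap, against 38.0% of all genes tested. The list was chosen with earlier results of these data known. The gamma-secretase subunit genes split. PSEN2, a catalytic presenilin, rose from 315 ± 17.2 to 600 ± 46.3 normalized counts (log2 fold change 0.93 ± 0.12, DESeq2 q = 8.75e-13). PSENEN, another subunit gene, also rose (0.65 ± 0.11, DESeq2 q = 3.08e-08). FURIN, which cuts receptors on their way to the cell surface, was lower (-0.31 ± 0.07, DESeq2 q = 6.68e-05). The following were named after their values were seen. NCSTN, the substrate-binding subunit nicastrin, rose by 0.30 ± 0.09, whereas the scaffold subunits APH1A (-0.22 ± 0.08) and APH1B (-0.39 ± 0.16) were lower. ADAM17 rose by 0.44 ± 0.10, and ADAM10, the main ligand-dependent sheddase of Notch, was lower (-0.28 ± 0.08). The calls on NCSTN, APH1A, APH1B and ADAM10 were each lost when at least 1 replicate was left out.

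Of 11 genes for enzymes that add sugars to the EGF repeats of Notch receptors, 1 was called higher and 4 lower. These stand beside 22.7% and 24.0% of all genes with a q. POGLUT3 (-0.57 ± 0.08, DESeq2 q = 1.63e-12) and POGLUT2 (0.45 ± 0.14, q = 0.00332), related O-glucosyltransferases, moved in opposite directions. XXYLT1, a xylosyltransferase, was lower (-0.47 ± 0.12, DESeq2 q = 0.000211). EOGT, which places O-GlcNAc on EGF repeats inside the secretory pathway and is a different protein from OGT, was lower by a small margin (-0.26 ± 0.11, DESeq2 q = 0.0352). GXYLT2, another xylosyltransferase, was also lower (-0.43 ± 0.18, q = 0.0409), and LFNG, the fringe enzyme that alters ligand choice, differed by 0.36 ± 0.17 (q = 0.0693). EOGT, GXYLT2 and LFNG were named after their values were seen. The call on EOGT was lost without the replicate block (-0.26) and without replicate 2, 3 or 4, that on GXYLT2 whichever replicate was left out, and LFNG was called by edgeR with the block.

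Among ligand look-alikes and other non-canonical ligands, THBS2, a matrix glycoprotein, fell from 11971 ± 2161 to 4910 ± 882 normalized counts (log2 fold change -1.28 ± 0.08, DESeq2 q = 3.46e-54). DLK2, a Delta-like protein without the receptor-binding domain of the canonical ligands, fell by 1.24 ± 0.23 on the log2 scale (DESeq2 q = 4.22e-07). DNER rose by 0.44 ± 0.19 (DESeq2 q = 0.0442), but lost its call without replicate 1, 2 or 4. CNTN1, named after its values were seen, had a Control mean of 5.02 normalized counts and was at 0 in all OGTi libraries. DESeq2 gave it no q, while edgeR with the block called it lower (q = 0.0153).

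For endocytosis and turnover, 2 of 15 genes were called higher and 3 lower, beside 22.7% and 24.0% of all genes with a q. NEURL1B, an E3 ubiquitin ligase of the Neuralized family that acts on ligands, fell from 3753 ± 197 to 1556 ± 66.9 normalized counts (log2 fold change -1.27 ± 0.07, DESeq2 q = 3.12e-63). DTX3 of the Deltex family was lower (-0.81 ± 0.12, DESeq2 q = 9.91e-11), and MIB2, a Mind bomb ligase, was higher (0.42 ± 0.10, q = 4.62e-05). The other called genes were named after their values were seen. NEURL1, a relative of NEURL1B, fell from a mean of 12.0 ± 4.92 to 0.707 ± 0.884 normalized counts (DESeq2 q = 0.00170). AAK1, a kinase of clathrin adaptors, rose by 0.24 ± 0.10 (DESeq2 q = 0.0356), a call that was lost without replicate 1 (0.11), 2 or 4 and without the replicate block.

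Most genes listed as nuclear partners of RBPJ were not called, and those called were lower apart from TLE1. These calls stand beside the 46.6% of all genes with a q that were called, 22.7% higher and 24.0% lower. Of 8 coactivator genes, 3 were called and all of these were lower: MAML2 (-0.71 ± 0.10, DESeq2 q = 1.02e-12), a Mastermind-like protein, and the acetyltransferases KAT2B (-0.57 ± 0.12, q = 4.77e-06) and CREBBP (-0.28 ± 0.08, q = 0.00140). The CREBBP call was lost without replicate 4. Of 15 genes listed as corepressors, 5 were called lower and 1 higher. The list also held KYAT1, a kynurenine aminotransferase and not a known corepressor of RBPJ. It was named after its values were seen and was not called (DESeq2 q = 0.549). TLE4, a Groucho-type corepressor, fell from 8347 ± 659 to 2975 ± 132 normalized counts (log2 fold change -1.49 ± 0.07, DESeq2 q = 5.43e-103), and TLE1 of the same family, named after its values were seen, rose by 0.22 ± 0.08 (q = 0.0240). The TLE1 call was lost whichever replicate was left out (0.15 to 0.25) and without the replicate block. FHL1 (-0.63 ± 0.07, DESeq2 q = 7.11e-16) and CTBP1 (-0.55 ± 0.07, q = 5.77e-15) were lower too. Counts are per gene and do not separate the isoforms of FHL1. The other called genes, named after their values were seen, were CTBP2 (-0.26 ± 0.08, DESeq2 q = 0.00239) and the histone deacetylase HDAC1 (-0.28 ± 0.09, q = 0.00590), whose call was lost without replicate 1 (-0.18, q = 0.0877).

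Of 11 other genes described as Notch targets in various tissues, 3 were called higher and 5 lower. The shares over all genes with a q were 22.7% and 24.0%. PDGFRB was also listed above as an HSC and myofibroblast marker, and SOX9 as a cholangiocyte marker. PDGFRB, the platelet-derived growth factor receptor of HSCs, fell from 2280 ± 251 to 1222 ± 97.0 normalized counts (log2 fold change -0.90 ± 0.09, DESeq2 q = 1.95e-23). ID1 rose (0.72 ± 0.11, DESeq2 q = 7.63e-10) while ID3, its relative, was lower (-0.40 ± 0.12, q = 0.00271) with 1 of 4 pairs higher. The ID3 call was lost without replicate 1 or 4, with edgeR without the block, with TMM size factors in DESeq2 and with a stricter filter. The others were named after their values were seen. CCND1, the gene of cyclin D1, had a log2 fold change of 0.80 ± 0.29 (DESeq2 q = 0.0143), SOX9 of 0.35 ± 0.11, SNAI2 of -0.29 ± 0.10, MYC of -0.22 ± 0.09 and GATA3 of -0.40 ± 0.17. Each of these 5 calls was lost when at least 1 replicate was left out, and those on SOX9, SNAI2, MYC and GATA3 also without the replicate block. NRARP, a feedback inhibitor that is among the most direct Notch targets, differed by 0.34 ± 0.67 (DESeq2 q = 0.715) at a Control mean of 13.1 normalized counts.

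**Figure D4:**
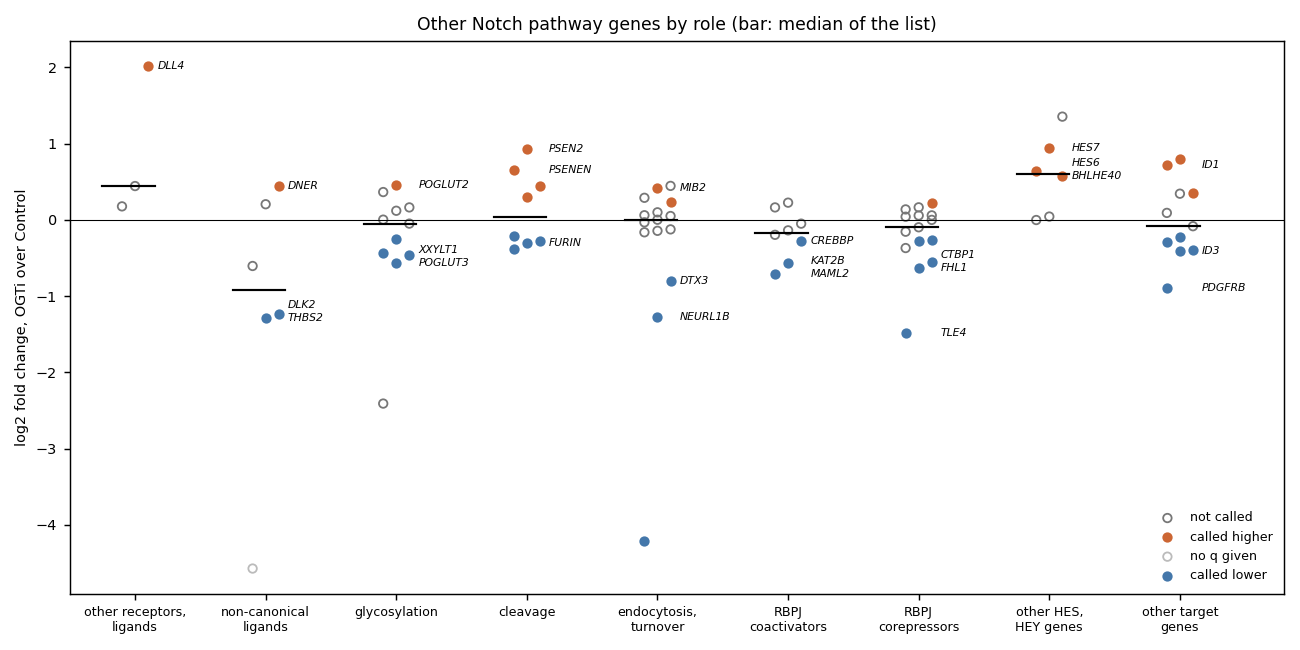
Log2 fold change of OGTi over Control for the other Notch pathway genes tested, grouped by role, with filled points for called genes, open points for genes not called or without a q, and a bar for each list's median. Cleavage genes are all filled, 4 above and 4 below 0, and the corepressor TLE4 stands lowest of its list at -1.49.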

How the data were processed

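Total RNA of LX-2 cells was enriched with oligo dT and sequenced as stranded DNBSEQ libraries. Per the labels and the study's methods, the authors aligned reads to hg38 with Bowtie2 2.3.5.1 and counted them per gene with RSEM 1.3.1 on GENCODE annotation. The deposited files hold expected counts, which are estimated counts not scaled for depth, for 16796 genes per library. The authors' deposited DESeq2 1.36.0 comparison table holds their fold changes and p-values and was not used.

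Expected counts were rounded, genes with a total under 10 were left out, and the rest were fitted in R 4.3.3 with DESeq2 1.42.0 (treatment plus replicate number, median-of-ratios size factors, independent filtering, no shrinkage). Division by the size factor gave normalized counts, and pair differences are log2 ratios of them with 0.5 added. TPM values were computed from the expected counts with GENCODE 44 lengths, which 16241 genes matched by symbol. Ratios within a library were compared with two-sided exact permutation tests.

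The study's methods pair samples by replicate. Deviations from the group mean correlated with r = 0.378, 0.303, 0.138 and 0.269 within the pairs over 11702 genes, which are not independent, and Control replicate 3 was closer to OGTi replicate 4 (0.272). Libraries of a group differed beyond counting error (chi-square per degree of freedom of 8.66 to 36.2).

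Alternatives were no block, edgeR 4.0.16 with and without the block, TMM size factors, other filters and leaving out each replicate. Outside the 10 genes, those named were the 3 called genes with the largest absolute Wald statistic in each list and the near-copies. Genes named beyond this rule were chosen after their values were seen. Some genes of these lists are not reported here. All members and lists were chosen with earlier results of these data known.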

Additional observations from a re-analysis of the deposited data

Results flagged for a closer look

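In 5 of 123 groups of 4 libraries, a library stood apart from the other 3 by Dixon's test at the 95% level, for which chance gives about 1 in 20 groups. For HES1 this was Control replicate 2, at 90.2 normalized counts where the other Control libraries had 47.1 to 51.6. ID1 had 556 in Control replicate 2, against 780 to 821. DNER had 143 in Control replicate 1, against 190 to 197. DLL3 had 46.2 in OGTi replicate 2, against 17.4 to 20.03. NEURL1 had 4.60 in Control replicate 3, against 14.1 to 14.6. Of these, HES1 belongs to the 10 Notch genes described first.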

How the results depend on the processing

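Of 100 alternative estimates for the 10 Notch genes, 88 kept their direction and their side of the threshold, 11 lost a call and 1 changed sign, which was HES1 without replicate 4 (leave-one-out range -0.45 to 0.063). The number of Notch genes called was 6 with the replicate block and 4 without it, and NOTCH2 and NOTCH3 were the calls lost. Leaving out a replicate gave 3 to 6 called and 1 to 3 called lower, with 3 and 1 without replicate 1 or without replicate 4. Leave-one-out ranges also crossed 0 for NOTCH2NLA (-0.059 to 0.40), DLL3 (-0.21 to 0.38), HES4 (-0.12 to 0.14), NRARP (-0.29 to 0.95) and the log2 ratio of JAG2 to JAG1 (-0.39 to 0.028), none of which had passed a test. The cause was not tested. Over all genes, DESeq2 called 6541 with the block and 6307 without it, and edgeR 7074 and 6041. With 4 pairs, an exact sign-flip test of a ratio cannot go below p = 0.125. HEY1 was dropped by the stricter filter, and JAG2, DLL1 and HES1 had 2 to 96 raw counts per library. Counts of mRNA do not measure receptor cleavage or protein.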
